A study of Homo sapiens with 12 samples.

Results

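The regions described here were bound by PAX5 in both Burkitt lymphoma lines and had no PAX5 peak in a Hodgkin lymphoma line that had been made to produce PAX5. They were chosen by the presence of peaks in the authors' lists. Peaks of all 6 lists were merged into 14465 regions where they overlapped or touched, and a region was kept when each of the 4 libraries of Raji and Namalwa had a peak in it and neither L428-PAX5 library had one. This held for 695 regions, 4.80% of all merged regions and 71.9% of the 966 regions with a peak in all 4 Burkitt libraries. They are called the Burkitt-only regions below. Their presence in 4 lists and absence from 2 is the rule itself and no finding.

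Raji and Namalwa are lines of Burkitt lymphoma, a tumour of mature germinal-centre B cells, and were grown without treatment. The Hodgkin line L428-PAX5 was treated with mifepristone, the overproduction of PAX5 being induced 48 h before the cells were fixed. Its parent L428 is a cell line of classical Hodgkin lymphoma. All 3 lines were fixed with 1% formaldehyde for 20 min, and chromatin was precipitated with 10 µg of the antibody C-20 against PAX5. Each line had 2 immunoprecipitated and 2 input libraries, and a line stands for itself only: L428-PAX5 is the single Hodgkin line, and L428 cells without induced PAX5 were not analysed here. Whether both libraries of a line stem from different cultures is not stated, so their spread may be technical.

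PAX5 is a transcription factor of the paired-domain family. In the B lineage it activates genes of the B-cell receptor and its signalling chain and represses genes of other blood lineages, and its loss lets B cells take on other fates. The tumour cells of classical Hodgkin lymphoma descend from germinal-centre B cells but have lost most of the B-cell expression programme. A Burkitt-only region is thus a place where no peak of induced PAX5 was called, although one was called in each library of both Burkitt lines. The lack of a called peak does not show that PAX5 was not bound there.

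Each deposited peak comes with 1 p-value, and these values hold more than a rank. Of the 25380 p-values, 99.8% equal, to all 6 printed digits, the probability of k or more successes in n trials with even odds, for whole numbers n of 600 or less. Among the 5950 peaks with a p-value from 1e-06 to 1e-05, 5948 matched such a value, while these values make up 0.259% of the numbers that can be printed there. The p-value of a peak can therefore be read back as a pair of whole numbers, the higher count k and the lower count n minus k, and 99.4% of all peaks gave exactly 1 pair. What the counts stand for (reads or fragments, whether the lower one comes from the input and how it was scaled) is not given in the sources used here. A threshold of 1e-05 then means a higher count of at least 17 beside a lower count of 0, of 31 beside 5 and of 41 beside 10.

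By the rule the same Burkitt-only regions lie in every Burkitt list, so they took up a larger part of the short lists than of the long ones. They held 33.3% of the peaks of Namalwa 2, 27.0% of Raji 1, 14.5% of Raji 2 and 11.6% of Namalwa 1, the lists having 2107, 2619, 4960 and 6241 peaks. The median higher count at these regions was 50.5 in Raji 1, 91 in Raji 2, 118 in Namalwa 1 and 47 in Namalwa 2. The median lower count followed the same order, with 5, 10, 15 and 5. The ratio of the higher to the lower count, with 1 added to each, differed far less than the counts did, with medians of 8.25, 8.32, 7.38 and 8.50 in the same order of libraries. Over all peaks of each list these medians were 8.00, 6.38, 5.50 and 8.00. The libraries of a line thus differed mainly in the size of the counts at these regions, and little in their ratio. A p-value reflects both the size of the counts and their ratio, and ranks within a list are used below to compare libraries. Such ranks still depend on list length, as the same regions fill 33.3% of the shortest list and 11.6% of the longest.

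Within each Burkitt list the Burkitt-only regions covered nearly the whole range of strength. Strength is given as the percentile of a peak by p-value within its list, where 100 is the best peak. The median percentile was 68.2 in Raji 1, 84.1 in Raji 2, 87.8 in Namalwa 1 and 63.4 in Namalwa 2, and single regions reached down to 0.592, 1.49, 3.66 and 0.475. The 271 regions of both Burkitt lines that did have an L428-PAX5 peak had medians of 83.7, 88.3, 88.5 and 69.7. The gap between the sets was widest in Raji 1 and smallest in Namalwa 1. Strong sites occurred in both sets: 41 of the 695 Burkitt-only regions (5.90%, exact 95% interval 4.27 to 7.92%) and 41 of the 271 others (15.1%, 11.1 to 20.0%) lay in the best 10% of all 4 lists. In the weaker part (percentile of 50 or less) of all 4 lists lay 5 Burkitt-only regions (0.719%) and 4 of the 271 (1.48%). Only the counting error over regions enters these intervals, and no test was made, since regions are not replicates and the lists chose them.

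**Figure D1:**
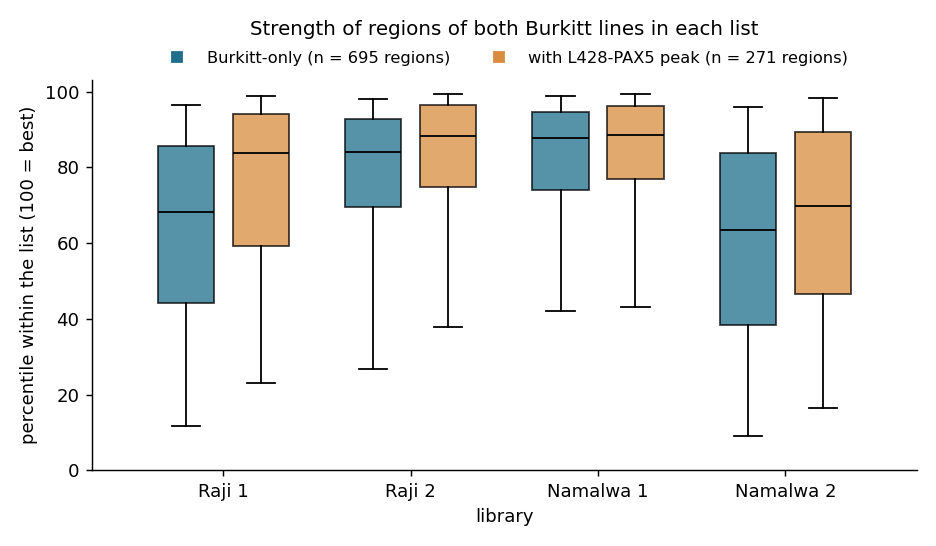
Percentile of regions within each Burkitt list (vertical axis, 100 = best peak) by library (horizontal axis), for the 695 Burkitt-only regions and the 271 regions of both Burkitt lines with an L428-PAX5 peak. Boxes span the quartiles with the median as a line and whiskers run from the 5th to the 95th percentile of regions; the medians of the Burkitt-only regions are lower in every library, by the most in Raji 1 (68.2 against 83.7).

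The border of the set was drawn in most cases by the shortest Burkitt lists. A further 865 regions had peaks in 3 Burkitt libraries and none in L428-PAX5, and of these 532 lacked Namalwa 2 and 286 lacked Raji 1, while 28 lacked Raji 2 and 19 lacked Namalwa 1. Those missing only Namalwa 2 had a median percentile of 52.8 over the other 3 libraries, against 75.7 for the Burkitt-only regions in the same libraries. The strongest of them still reached 95.8. Without Namalwa 2 as a requirement, 1226 regions would meet the rule. Among the Burkitt-only regions the library with the lowest percentile was Namalwa 2 in 340, Raji 1 in 260, Raji 2 in 62 and Namalwa 1 in 33. Percentiles depend on list length, and Namalwa 2 and Raji 1 have the shortest lists. The same count was not made for other regions.

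Of the 3 weakest regions just inside the rule, 1 was near the calling threshold in every library. Chromosome 13, 25138896 to 25139452 (build hg19, start and end as the lists give them), had a −log10 p of 5.89, 6.15, 6.27 and 6.02 in Raji 1, Raji 2, Namalwa 1 and Namalwa 2. Its higher counts were 29, 30, 40 and 20, and its lower counts 3, 3, 7 and 0. It was evenly weak, whereas chromosome 2, 64327708 to 64328209, the region with the lowest mean percentile of all (23.2), was near the threshold in 3 lists and reached the 52.6th percentile in Namalwa 1. The remaining one of the 3 weakest lay on chromosome 14, 64191908 to 64192452, with a mean percentile of 24.0 and its best value, 42.2, in Raji 1. Most regions were far above these, the middle of the 695 mean percentiles being 71.3.

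On the other side, 124 regions of all 4 Burkitt libraries were kept out by a peak in a single L428-PAX5 library, 105 by L428-PAX5 1 and 19 by L428-PAX5 2. The median percentile of those L428-PAX5 peaks was 47.0, near the middle of the list, in L428-PAX5 1 and 24.1 in L428-PAX5 2, against 81.1 and 66.6 at the 147 regions found in all 6 libraries. The faintest of them, on chromosome 16 at 68108478 to 68109284, had a higher count of 23 and a lower count of 2 in L428-PAX5 (−log10 p of 5.01), although its mean percentile in the Burkitt lists was 97.2. The strongest of the 124, on chromosome 2 at 64203153 to 64203768, had a higher count of 58 and a lower count of 1 there.

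Absence from the L428-PAX5 lists can be set against what a call needed there. At the median lower count of the L428-PAX5 lists, 8 in replicate 1 and 12 in replicate 2, a peak needed a higher count of 37 and of 45, which is a ratio of 4.22 and 3.54 with 1 added to each count. The counts of L428-PAX5 at these regions are not in the lists, and the ratio there was not measured.

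The 10 top Burkitt-only regions by mean percentile were among the best 99 peaks of every Burkitt list. First was chromosome 7, 98270937 to 98271781, which ranked 5 in Raji 1, 3 in Raji 2, 18 in Namalwa 1 and 12 in Namalwa 2. Its −log10 p was 47.5, 85.5, 83.5 and 45.7, and its lower counts were 14, 28, 39 and 17. The higher count was 217 in Raji 1 and 220 in Namalwa 2. The −log10 p was thus similar in the pair of short lists and in the pair of long lists, and split by list length and not by line. The nearest L428-PAX5 peak lay 507 kb away.

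Chromosome 1, 31227458 to 31228006, was the narrowest of the 10 with 548 bp, and had higher counts of 189, 320, 356 and 174 beside lower counts of 6, 18, 21 and 7. Chromosome 10, 5882137 to 5883226, was the widest with 1089 bp. It was the third strongest peak of Raji 1, its higher counts were 211, 342, 358 and 151, and an L428-PAX5 peak lay 21.0 kb away. On chromosome 6, 107150059 to 107150847, the higher counts were 190, 357, 381 and 178, and the lower counts, 15, 38, 37 and 13, were among the largest of the group. The ratios exceeded 9 in each library of that region. The 10 regions were picked by p-value, so a large lower count could enter only beside a much larger higher count.

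A second region of chromosome 10, 94516798 to 94517493, had small lower counts in the short lists, 2 beside 117 in Raji 1 and 3 beside 129 in Namalwa 2. Its centres differed by no more than 17.5 bp over the 4 libraries. Chromosome 3, 46580191 to 46580968, was still tighter, its 4 centres lying within 8 bp, and its higher counts were 154, 269, 357 and 133. Chromosome 14, 25601803 to 25602464, had higher counts of 102, 198, 300 and 133, and its lower count of 1 in Raji 1 gave the highest ratio of the 10 regions, 51.5.

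Chromosome 4, 300242 to 300889, was stronger in Raji by rank: its percentiles were 99.4 and 99.8 in Raji and 99.1 and 97.0 in Namalwa. Chromosome 3, 194412351 to 194413106, was the one nearest to L428-PAX5 signal, with a peak of that line 5.49 kb away. The last of the 10, chromosome 13, 41163432 to 41164266, ranked 24, 22, 51 and 99 in the 4 lists. The lowest ratio of counts in any library of the 10 regions was 7.88. In 4 of the 10 both Raji percentiles were above both Namalwa percentiles, and in none was the order reversed, although at such ranks the percentiles differ by a few points at most.

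**Figure D2:**
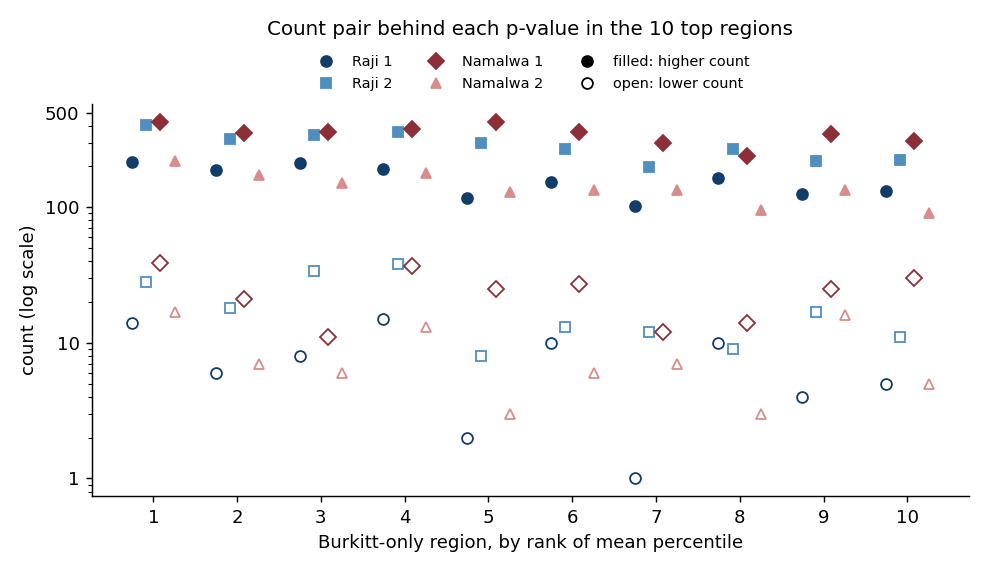
Higher count (filled) and lower count (open) read from the p-values of the 10 top Burkitt-only regions, in the order of their mean percentile, for the 4 Burkitt libraries on a log scale. In every region the filled points lie well above the open ones, which the calling threshold and the choice by p-value require. The higher counts of Raji 2 and Namalwa 1 lie above those of Raji 1 and Namalwa 2.

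By the rule the peaks of a region, in either set, are joined by overlap or touching. This bounds how far apart their centres can lie, so the values here are a description only. The centres of the best peaks of a Burkitt-only region differed by a median of 95 bp between the 2 libraries farthest apart, and by at most 200 bp in 569 regions (81.9%). The regions with an L428-PAX5 peak had a median of 98 bp. A single peak per library made up 654 of the 695 regions (94.1%), and 41 held more than 4 peaks, up to 8. The median width was 701 bp (quartiles 570 and 887 bp, range 372 to 2488 bp), and all regions together covered 0.532 Mb. For comparison, the Burkitt peaks of the 271 other regions spanned a median of 769 bp.

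All 695 regions were present in both Burkitt lines, and their order of strength was more alike within a line than between the lines. Over the regions, the −log10 p values of the 2 Raji libraries had a Spearman rho of 0.704 and those of the 2 Namalwa libraries 0.678, whereas the 4 pairs of a Raji with a Namalwa library had 0.406 to 0.433 (n = 695 regions, which share libraries, depth and the selection by threshold). The 271 regions with an L428-PAX5 peak showed the same split, with 0.779 and 0.702 within the lines and 0.489 to 0.588 between them. Both Raji percentiles exceeded both Namalwa percentiles in 129 regions (18.6%), against 20.4% of all 966 regions of both Burkitt lines. The reverse order was found in 132 (19.0%), against 17.9%. The background includes the members. Among the 271 regions with an L428-PAX5 peak alone, the shares were 25.1% (exact 95% interval 20.0 to 30.7%) for Raji, against 18.6% (15.7 to 21.7%) of the members, and 15.1% (11.1 to 20.0%) for Namalwa, against 19.0% (16.1 to 22.1%). The 434 others overlapped. Percentiles within a list depend on its length, and a rank among the 966 regions alone was added after seeing the data. By that rank 183 members were stronger in Raji and 195 in Namalwa, against 254 (26.3%) and 255 (26.4%) of the 966. No region was tested singly: with 2 libraries against 2, an exact permutation test could not pass 0.05. The counts of 129 and 132 rest on all 4 libraries. With 1 library left for a line the order is easier to meet, and the set of regions is another one. Without Raji 1, 365 of 981 regions were stronger in Raji and 283 in Namalwa. Without Raji 2 the counts were 147 and 323 of 723. Without Namalwa 1 they were 376 and 142 of 714. Without Namalwa 2 they were 344 and 528 of 1226. The shares over all regions of both Burkitt lines were not computed for these sets.

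**Figure D3:**
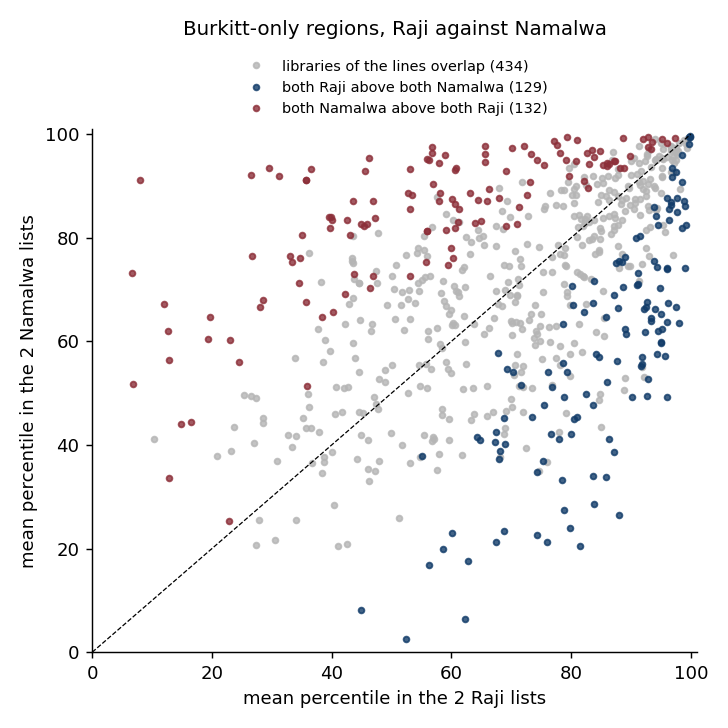
Mean percentile of each of the 695 Burkitt-only regions in the 2 Raji lists (horizontal axis) and in the 2 Namalwa lists (vertical axis), with the diagonal of equal percentile. Blue marks the 129 regions where both Raji values exceed both Namalwa values, red the 132 with the reverse order and grey the 434 that overlap.

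The regions that differed most toward Namalwa were high in the Namalwa 1 list, and 5 of their 6 Raji percentiles were below 15. Chromosome 14, 95794073 to 95795132, had percentiles of 14.4 and 1.49 in Raji and of 94.8 and 87.5 in Namalwa, with higher counts of 25, 48, 202 and 83. On chromosome 13, 46967062 to 46967808, the percentiles were 10.6 and 42.5 in Raji against 99.0 and 85.3 in Namalwa. Chromosome 3, 187618440 to 187620440, had 7.45 and 5.96 against 96.1 and 50.4. This last region was 2000 bp wide and made of 6 peaks whose best centres lay up to 1273 bp apart.

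Toward Raji the differences were smaller. Chromosome 9, 112728506 to 112729652, had percentiles of 86.6 and 89.4 in Raji and of 19.5 and 33.3 in Namalwa, with higher counts of 74, 136, 49 and 36. The percentiles of chromosome 11, 121293331 to 121293950, were 74.1 and 88.9 against 40.4 and 0.475, the last value being close to the weakest peak of the Namalwa 2 list. On chromosome 17, 36780900 to 36781619, the values were 36.0 and 88.7 against 5.83 and 6.83. The libraries of the lines did not overlap in any of these 6 regions, which is how they were picked. None of these 6 met the rule in lists cut to equal length or in the better 50% of each list, so their differences could not be recomputed there. The gap in mean percentile was 61.5 at the first Raji region and −83.2 (Raji minus Namalwa) at the first Namalwa region.

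The distances of the Burkitt-only regions to L428-PAX5 peaks were close to those of other regions without such a peak. The median distance to the nearest L428-PAX5 peak was 105 kb (quartiles 31.9 and 248 kb), and 108 kb for the other regions. Within 10 kb there was an L428-PAX5 peak for 68 of the 695 regions (9.78%, exact 95% interval 7.68 to 12.2%), against 10.1% of the 7580 regions without an L428-PAX5 peak. Within 50 kb the share was 230 regions (33.1%, 29.6 to 36.7%), against 32.6%. There were 2043 regions with a peak in each L428-PAX5 library and in no Burkitt library. Of these, 1 or more lay within 50 kb of 9.93% of the Burkitt-only regions and of 10.6% of the 6885 other regions without an L428-PAX5 peak. Without L428-PAX5 replicate 1, the longer list, the share within 10 kb was 5.49%, against 5.08% of the regions without a peak in the remaining library. At the far end, 24 regions had no L428-PAX5 peak within 1000 kb.

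**Figure D4:**
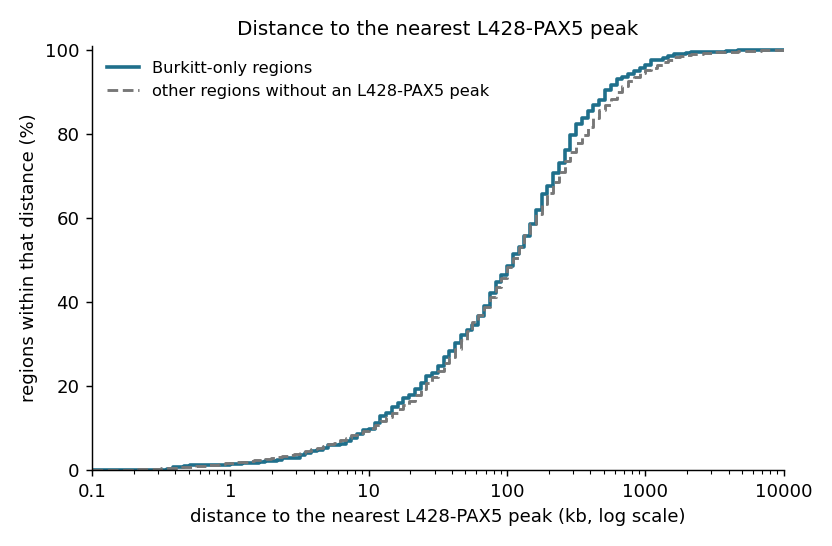
Share of regions (vertical axis, percent) with an L428-PAX5 peak within a given distance (horizontal axis, kb, log scale), for the 695 Burkitt-only regions (solid) and the 6885 other regions without an L428-PAX5 peak (dashed). The curves lie close together, with 9.78% and 10.1% at 10 kb and 48.6% and 48.3% at 100 kb.

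In 10 Burkitt-only regions (1.44%, against 1.73% of the 6885 others) an L428-PAX5 peak ended or began less than 1 kb away, so that a slightly wider merging rule would have removed them. The smallest gap was 174 bp, at chromosome 1, 161146567 to 161147159, beside a peak of L428-PAX5 1 with a higher count of 47 and a lower count of 7. Chromosome 11, 128421612 to 128422252, came next with 329 bp. That region was strong in the Burkitt lists (percentiles of 86.1 and 98.1 in Raji and 90.2 and 88.7 in Namalwa), and the L428-PAX5 1 peak beside it had a percentile of 61.6. That L428-PAX5 peak lay in a region of its own, 128422581 to 128423391, which had peaks of all 4 Burkitt libraries too (mean percentile 86.1). At chromosome 16, 70322347 to 70323347, both L428-PAX5 libraries had a peak nearby, 354 and 508 bp away, with percentiles of 67.4 and 22.8. Whether such neighbours belong to 1 broader site was not tested.

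Most Burkitt-only regions stood alone, and some came in groups. Within 100 kb of another member, measured between centres, were 145 of the 695 (20.9%, exact 95% interval 17.9 to 24.1%). A Burkitt-only region lay as near to 39 of the 271 regions with an L428-PAX5 peak (14.4%, 10.4 to 19.1%) and to 1093 of the 6885 other regions without one (15.9%, 15.0 to 16.8%). These shares were not tested against each other, since regions on 1 stretch are not independent. Chains of members joined by such distances held 2 regions in 56 cases, 3 in 7 cases and 4 in 3 cases. Of the 10 chains with 3 or more members, 9 had no L428-PAX5 peak between their first and last region. The 10 chains spanned 25.1 to 160 kb. Members lack such a peak by the rule. The median distance to the nearest one was 105 kb for them and 108 kb for other regions without one. The same count was not made for other regions, so it shows nothing particular to the members.

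The chains of 4 lay on chromosomes 3, 5 and 19. On chromosome 5, 4 regions lay between 150576039 and 150613804, a stretch of 37.8 kb that held no other region of any library. The nearest L428-PAX5 peak was 161 kb away, farther than for any other chain of 3 or more. Its strongest member, 150590516 to 150590978, had a −log10 p of 33.5 and 43.4 in Raji and of 23.1 and 10.8 in Namalwa. The member at 150613182 to 150613804 had the opposite order of −log10 p, with 6.33 and 10.2 in Raji and 23.5 and 12.9 in Namalwa. By percentile, the strongest member had 99.3 and 99.1 in Raji against 90.4 and 74.5 in Namalwa. At 150576039 to 150576780 the lines overlapped, with 66.5 and 86.6 in Raji against 91.5 and 85.8 in Namalwa. Members of the same stretch therefore did not share 1 order between the lines by percentile either.

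On chromosome 19, 4 regions lay between 10308009 and 10353898 (45.9 kb), with an L428-PAX5 peak 8.53 kb from the last of them. The strongest, 10349738 to 10350499, had percentiles from 87.6 to 94.5 in the 4 lists and a lower count of 6, 2, 3 and 0. On chromosome 3, 4 regions lay between 187618440 and 187687834 (69.4 kb), among them the wide region that was weak in Raji. The other members of that stretch had mean percentiles of 71.5, 74.4 and 88.7. Of the chains of 3, the one on chromosome 6, from 91013965 to 91086172, was the strongest, its members having mean percentiles from 82.5 to 97.1.

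Burkitt-only regions were found on all 22 autosomes and on X, and none on Y or on an unplaced contig. Chromosome 1 held 77, chromosome 2 held 52 and chromosome X held 4. As a share of the regions of both Burkitt lines on a chromosome, they ran from 44.4% on X (4 of 9, exact 95% interval 13.7 to 78.8%) to 87.0% on chromosome 5 (40 of 46, 73.7 to 95.1%). The interval held the share over all chromosomes, 71.9%, for 21 of the 23 chromosomes. It lay above that share on chromosome 5 and below it on chromosome 16, where 23 of 41 regions (56.1%, 39.7 to 71.5%) were without an L428-PAX5 peak. The intervals are not adjusted for the 23 chromosomes. The low share on chromosome 16 rested on L428-PAX5 1: there 58.5% of the 41 regions had no peak in that library, against 73.9% of all 966, while 85.4% had none in L428-PAX5 2, against 82.8%. On chromosome 5 the shares were 87.0% (73.7 to 95.1%) and 93.5% (82.1 to 98.6%), and against each library alone the interval held the share over all chromosomes.

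**Figure D5:**
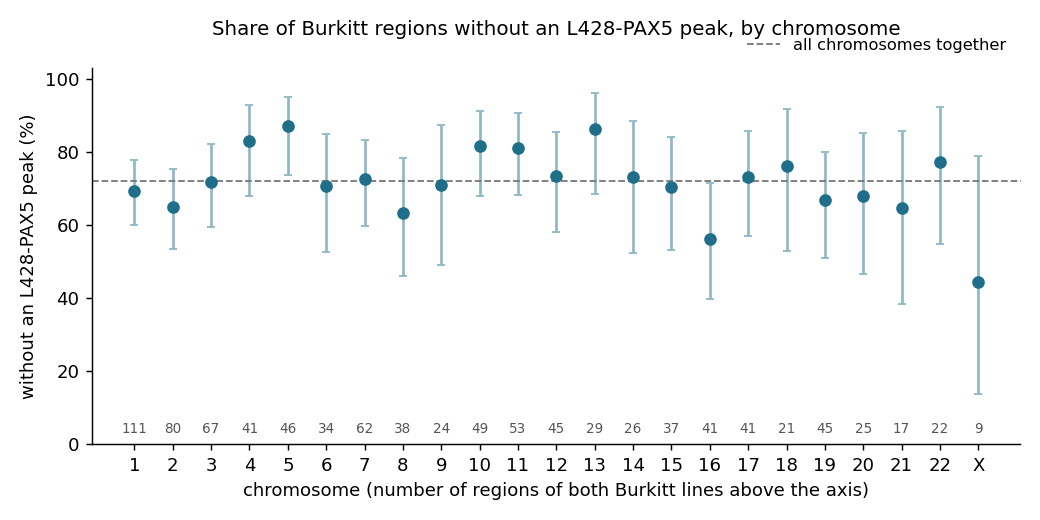
Share of the regions of both Burkitt lines that have no L428-PAX5 peak (vertical axis, percent, points) on each chromosome (horizontal axis), with exact 95% intervals as bars and the number of regions above the axis; the dashed line is the share over all chromosomes, 71.9%. Chromosome 5 lies above the line and chromosome 16 below it with the whole interval, and X has 9 regions only.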

How the data were processed

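PAX5 chromatin immunoprecipitation libraries of 3 cell lines were compared through the authors' peak lists, 1 per immunoprecipitated library. Build hg19, BWA 0.5.9-r16 and CASAVA (1.3, 1.8) stand in the submitters' processing notes, and peaks are numbered PeakRanger_ in the deposited lists. The deposited value per peak is the authors' p-value. For read depth, caller settings and use of input, nothing is given in the sources used here, and the 6 input libraries were not analysed here.

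Overlapping or touching peaks were merged, and the best peak of a library stood for it in a region. Percentiles rank p-values within a list. Count pairs were read back from p-values with n up to 600. Peaks with no matching pair or with more than 1 were left out of count summaries. This reading, and every measure built on it, was added after seeing the data, and the limit on n was set after trying several. The shares of other regions near a Burkitt-only region were added later as well. The scripts were tested on simulated lists. Named regions are the 10 top and 3 weakest by mean percentile, the 3 farthest toward each Burkitt line, the 3 nearest to an L428-PAX5 peak, and the chains with most members; others named at the border of the rule, the chain on chromosome 6 and single chromosomes were picked after their values were seen. The members, lists and rules were chosen with earlier results of these data known. Genes, gene lists and sequence motifs, which had been planned, are not given, because the tables at hand belong to GRCh38.p14 and coordinates were not converted. No test was planned or made. Computations ran in Python 3.11.15 (pandas 2.3.3, numpy 2.4.6), with intervals from scipy 1.17.1 and plots from matplotlib 3.10.9.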

Additional observations from a re-analysis of the deposited data

How the results depend on the processing

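Lists, overlap rules and libraries were varied 1 at a time. The regions stronger in Namalwa and those stronger in Raji were nearly equal in number as reported (132 and 129). Which number was larger changed with a reciprocal overlap (120 and 122), centres within 200 bp (122 and 126) and equal lists (140 and 157). It also changed without Raji 1 (283 and 365), Namalwa 1 (142 and 376) or L428-PAX5 1 (151 and 152). Without a Burkitt library the order is easier to meet, so those counts are not like the others. The share within 10 kb was above that of all regions without an L428-PAX5 peak without L428-PAX5 1 (5.49% and 5.08%), equal to 3 digits without L428-PAX5 2 (9.24%), and below it in each other setting that rebuilt the regions. Chosen after seeing the data were the rank among common regions and the scaled higher count. In the better 50% of each list, 359 Burkitt-only regions remained by the rule (75.4% of the regions of both Burkitt lines), 318 of them among the 695, with 5.01% within 10 kb of an L428-PAX5 peak (5.49% of all regions without one) and 64 stronger in Raji and 69 in Namalwa; fewer peaks enter there by construction. With lists of equal length there were 554 (479 among the 695), the share was 80.9%, and 4.15% lay within 10 kb (background 5.00%). The median width was 675.5 bp with a reciprocal overlap of 50% and 677 bp with centres within 200 bp. The share within 5 kb was 5.76% and within 50 kb 33.1%. Higher counts scaled to their median gave 177 regions stronger in Raji and 217 in Namalwa. Of 938 regions of both Burkitt lines, 258 (27.5%) and 277 (29.5%) had these orders. The −log10 p scaled to its median gave 184 and 192 regions, against 251 (26.0%) and 245 (25.4%) of 966. When 1 library at a time was left out, there were 714 to 1226 regions, shares of 71.9 to 82.9%, median widths of 624 to 704.5 bp, 5.49 to 10.1% within 10 kb, 131 to 376 regions stronger in Raji and 137 to 528 in Namalwa.

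The replicate numbers are shared by the lines, and nothing in the labels pairs them; deviations of same-numbered libraries had r = −0.066 over 966 regions. Taken as a replicate block, 150 regions were stronger in Raji in both same-numbered pairs and 154 in Namalwa. The shares of all 966 regions of both Burkitt lines with these orders were not computed. Nor were they computed for the settings above that changed the regions, so those counts say nothing particular about the members. The motif and gene alternatives were not run for want of an hg19 genome. Of the 33 named regions, 16 met the rule in the better 50% of each list, 21 in lists of equal length and at least 31 in each other setting.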
